A study of Mus musculus with 10 samples.

Results

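The genes described here encode the contractile apparatus of fast skeletal muscle: the thin and thick filaments, the M-band with titin, the Z-disc, and a set of filament-associated proteins whose genes respond to stretch. They are 50 genes out of 39179 gene identifiers in the count files. They were listed by name for their role in the sarcomere, with earlier results of these data known. By role they split into 15 thin filament, 6 thick filament, 5 M-band and titin, 15 Z-disc and 9 stretch response genes. All 50 were among the 12690 genes with enough counts to be tested.

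RNA came from the tibialis anterior, a fast-twitch muscle at the front of the lower leg, of 4 Control and 6 LLC mice. Lewis Lung Carcinoma (LLC) is a mouse lung cancer cell line that grows tumors in syngeneic mice and causes cachexia, the loss of body and muscle mass in cancer. LLC mice received 750000 LLC cells under the skin of each flank and Control mice received phosphate-buffered saline alone. The sample labels give C57BL/6J mice, 10 weeks old at injection, with 23 days of tumor growth for LLC and 0 for Control. The series' text instead gives male C57BL/10 mice of 8 weeks and 22 days, and the difference could not be settled. The labels name no transgene or deletion in either group. The 6 LLC mice were among those that survived to collection, and each library came from 1 muscle sample of 1 mouse.

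A sarcomere is the repeating unit of striated muscle. Thin filaments of actin, tropomyosin and troponin are anchored in the Z-disc by alpha-actinin, thick filaments of myosin are held in register at the M-band by myomesins, and titin spans from one structure to the other. Calcium binding to troponin shifts tropomyosin and lets myosin heads pull on actin. Many of these proteins exist as paralogs that are used in fast, slow, cardiac or developing muscle, and the Z-disc also carries proteins that sense load. In cachexia, myofibrillar protein is removed through the ubiquitin-proteasome system.

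Values are CPM, counts scaled to a common library total and by library composition, and RPKM, the CPM divided by the exonic length in kilobases, is given where genes are compared with each other. Total counts ran from 16693209 to 21303084 per sample, so that 3 counts corresponded to 0.141 to 0.180 CPM. The tissue label held: Myh4, the heavy chain of the fastest fibres, stood at 38360.2 to 41061 CPM in Control and 27275 to 51130 CPM in LLC, while 6 slow-fibre markers summed to at most 45.8 CPM in any sample. Not all of the genes are restricted to fast fibres, as Actc1, Actn2, Mybpc1, Csrp3 and Ankrd2 are also used in slow or cardiac muscle. LLC 1 stood apart, at a distance of 70.3 from the mean of the LLC samples in log2 CPM over all tested genes against 26.5 to 36.7 for the other 5, and results that rest on it are given with and without it. In bulk muscle, fewer cells of a type and less RNA per cell cannot be told apart.

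Of the 50 genes, 6 fell in LLC muscle and 0 rose. A gene was said to change with an adjusted p of 0.05 or less (edgeR's quasi-likelihood test, adjusted by Benjamini-Hochberg over all tested genes) and at least a 1.5-fold difference. The genes that fell were Actc1, Lmod3 and Gsn of the thin filament, Myom3 of the M-band, Actn2 of the Z-disc and Fhl1 among the stretch response genes. Their share of 12% compares with 3.99% of all tested genes that fell by the same criteria, and 1.65% of all tested genes rose. DESeq2's Wald test gave 7 genes that fell and 0 that rose, adding Ankrd2, against 5.23% of all tested genes that fell with that test. Without LLC 1, edgeR gave 8 that fell, adding Csrp3 and Ankrd2, against 5.37% of the genes tested. The paper reports Actc1, Fhl1, Gsn, Myom3 and Lmod3 as down-regulated. It also reports Myl1 and Synpo2 as down-regulated, and neither passed here (edgeR, adjusted p = 0.144 and 0.244). The list was made with earlier results of these data known. These shares and the directions below therefore describe the list and do not test it.

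The direction was broader than the calls. The log2 fold change was below 0 for 38 of the 50 genes, against 49.7% of all tested genes, and its median was -0.13, against 0.0019 over all tested genes. An unadjusted p of 0.05 or less was found for 18 genes, 17 lower and 1 higher (Des), a share of 36% against 27.4% of all tested genes. In 14 genes every LLC sample lay below every Control sample, compared with 9.57% of all tested genes. In 0 genes did every LLC sample lie above every Control sample, compared with 6.4% of all tested genes. Without LLC 1, 15 genes had an adjusted p of 0.05 or less in edgeR's quasi-likelihood test with no fold minimum, all of them lower in LLC, against 14.2% of the genes tested in either direction. Still, 26 of the 50 differed by less than 1.2-fold.

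**Figure D1:**
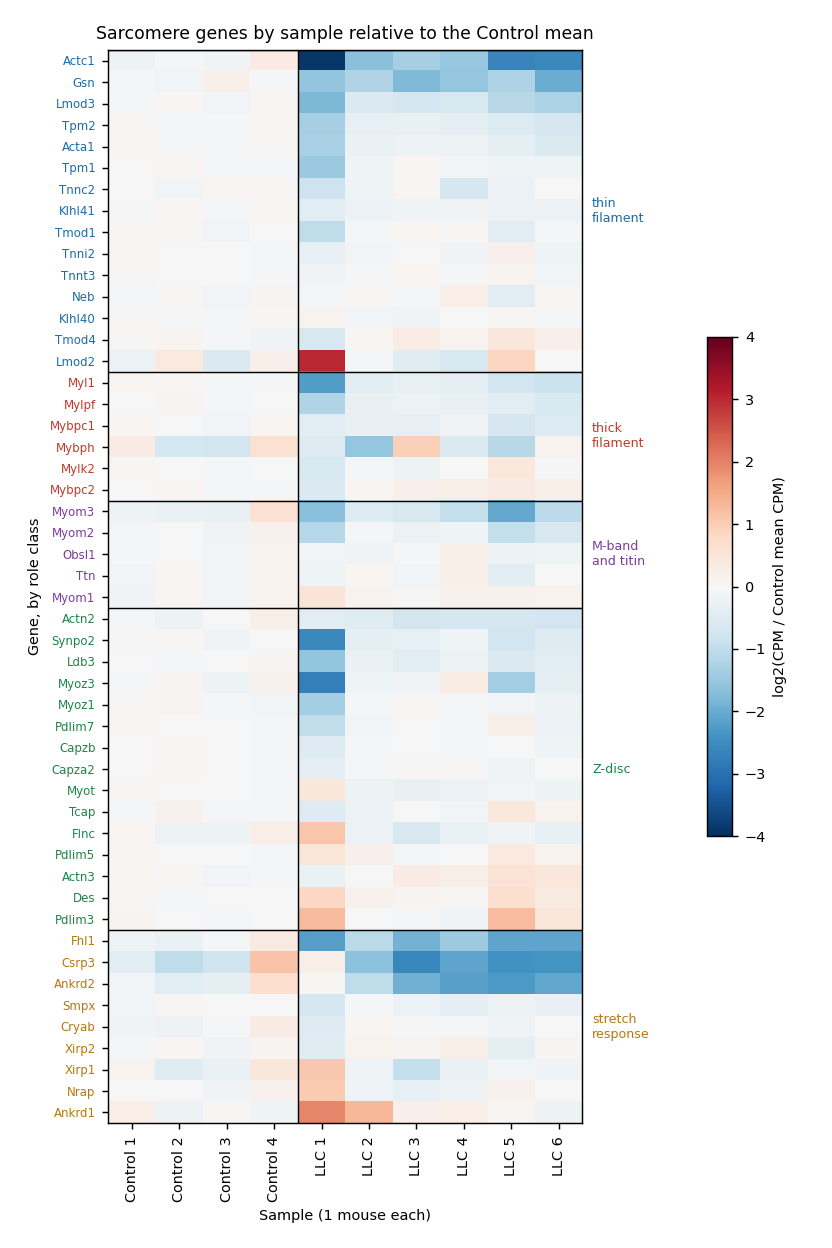
Log2 ratio of each gene's CPM to its Control mean (color, from -4 to 4) for the 50 genes (rows, by role class and by fold change within it) in the 10 mice (columns). Blue cells gather in Actc1, Gsn, Lmod3, Fhl1 and, outside LLC 1, Csrp3 and Ankrd2, and LLC 1 holds the deepest blue and red cells of many rows.

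By role class the median log2 fold change was -0.24 for the thin filament, -0.30 for the thick filament, -0.07 for the M-band and titin, -0.08 for the Z-disc and -0.11 for the stretch response genes. Without LLC 1 the medians were -0.10, -0.25, -0.05, -0.05 and -0.22 in the same order. With all samples, the thick filament median lay between Mybpc1 (-0.40) and Mybph (-0.20), and Mybph had few counts. No test was run on these medians, since the genes of a class are measured in the same mice. The summed level of the thick filament genes was 22914 to 24878 CPM in Control and 16967 to 21098 CPM in LLC 2 to 6, with 10103 CPM in LLC 1. The thin filament genes summed to 71708 to 75567 CPM in Control, to 60770.4 to 71350.1 CPM in LLC 2 to 6 and to 44196 CPM in LLC 1. These sums did not overlap between the groups in either filament class. For the thin filament this held only after scaling by library composition: as a share of raw counts its genes took 6.85% to 7.10% in Control and 5.15% to 7.13% in LLC, with LLC 3 (6.89%) within the Control range and LLC 5 (7.13%) above it. The thick filament share did not overlap either way, at 2.19% to 2.36% in Control and 1.18% to 2.06% in LLC. The scaled sums of the M-band and titin and of the Z-disc genes overlapped. As a share of raw counts the Z-disc genes took 1.71% to 1.80% in Control and 1.76% to 2.39% in LLC. Only LLC 2 (1.76%) was within the Control range, and the other LLC samples were above it. The stretch response sum overlapped through LLC 1 alone, which was at 5446 CPM, while LLC 2 to 6 were at 4036 to 4782 CPM, below the Control range of 5229 to 6622 CPM. Fhl1 was a large part of this sum, at 1318 to 2056 CPM in Control and 371 to 762 CPM in LLC 2 to 6. Xirp2, another large part, overlapped, at 1561 to 1847 CPM in Control and 1319 to 2003 CPM in LLC 2 to 6, and so did Nrap. The sum therefore does not describe each gene of the class.

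**Figure D2:**
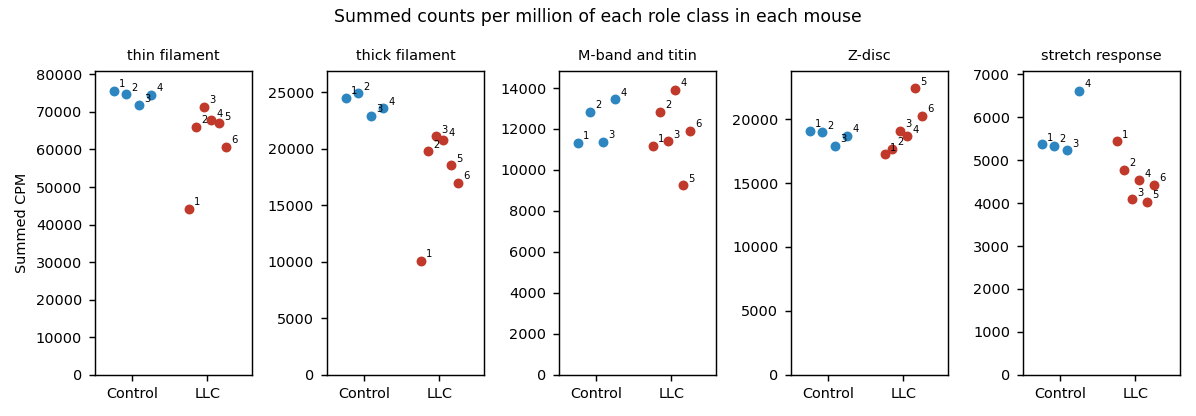
Summed CPM of the genes of each role class (vertical axis, linear, from 0) in each of the 4 Control (blue) and 6 LLC (red) mice, with replicate numbers beside the points. The 2 filament classes lie below Control in each LLC mouse, lowest in LLC 1, which for the thin filament does not hold in unscaled shares of counts. The M-band and titin and the Z-disc sums overlap. The stretch response sum, of which Fhl1 is a large part, overlaps only through LLC 1.

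Variation among mice was itself larger in LLC. For 47 of the 50 genes the LLC samples had the larger SD of log2 CPM, against 85.1% of all tested genes, with a median SD of 0.094 in Control and 0.37 in LLC. LLC 1 was the lowest LLC sample for 29 of the 50 genes and the highest for 14, against 33.2% and 32.8% of all tested genes. In LLC 1 mitochondrially encoded genes took 22.0% of counts, the lowest share of the 10 libraries (22.9% to 27.9% in the other LLC and 28.4% to 30.7% in Control samples). Its part in the values of LLC 1 was not tested.

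**Figure D3:**
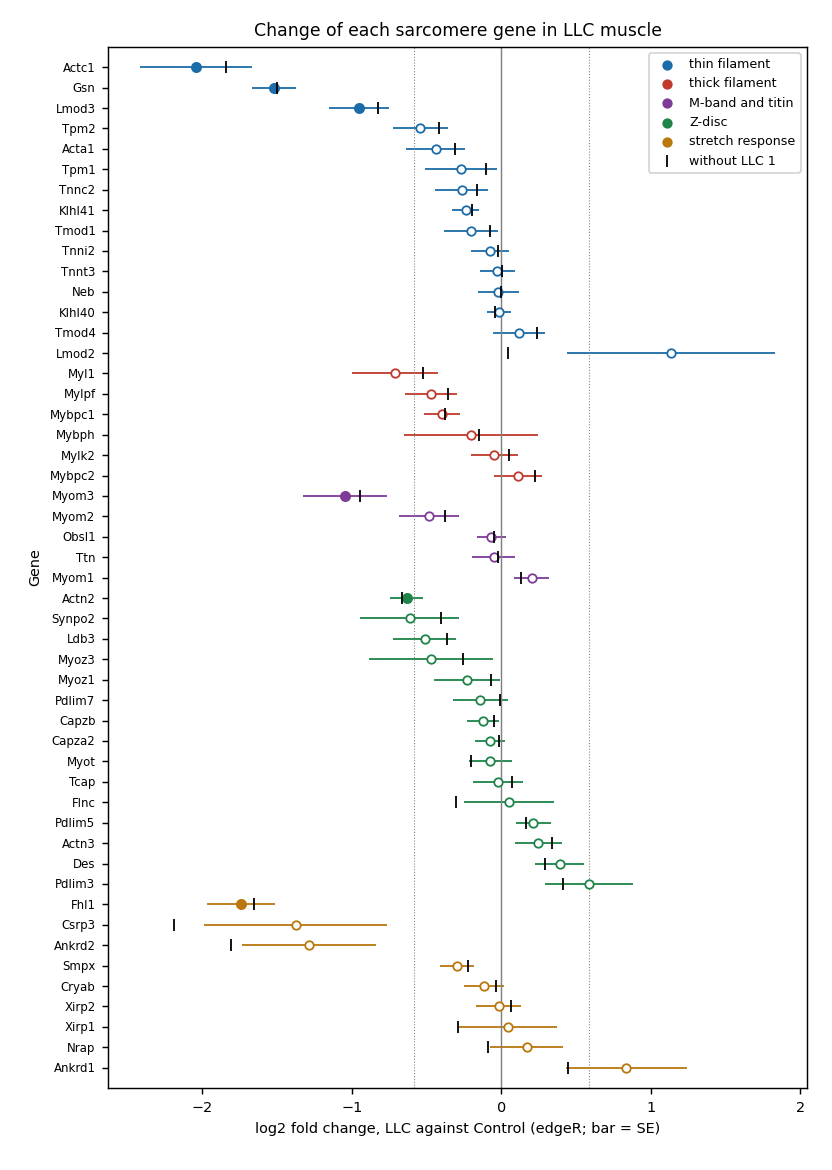
Log2 fold change of LLC against Control for the 50 genes (circles, bars are the SE from edgeR), colored by role class. Filled circles mark the 6 genes past the threshold, dotted lines 1.5-fold, and black ticks the value without LLC 1, which lies furthest from the circle for Lmod2, Csrp3 and Ankrd2.

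The sequences upstream of several of these genes are shown because Actc1, the actin that fell, its abundant paralog Acta1 and the stretch gene Fhl1 hold the same motif there. The CArG box is bound by serum response factor, a regulator of actin genes, and the MEF2 site by the myocyte enhancer factor family. RefSeq promoter windows (GRCm38.p6, 250 bases before to 50 after a start) were found for 37 of the 50 genes, as 44 windows. A CArG box on either strand was present in 6 of the 44 windows (13.6%), from 5 genes, against 1.63% of all 32851 windows. The same Ldb3 box was counted in more than 1 of these windows. The stretches before the start are printed 5' to 3' on the gene's strand, with the CArG box in capitals:
Actc1 (chr2:114052883-114052952, minus strand): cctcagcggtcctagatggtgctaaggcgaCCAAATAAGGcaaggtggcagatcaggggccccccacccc
Acta1 (chr8:123894809-123894878, minus strand): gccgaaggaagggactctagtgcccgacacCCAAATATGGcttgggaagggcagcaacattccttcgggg
Fhl1 (chrX:56779551-56779620, plus strand): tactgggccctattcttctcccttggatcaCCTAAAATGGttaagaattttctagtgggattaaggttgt
Ldb3 (chr14:34588682-34588746, minus strand): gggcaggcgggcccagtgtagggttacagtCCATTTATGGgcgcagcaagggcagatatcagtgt
Myom1 (chr17:71019428-71019497, plus strand): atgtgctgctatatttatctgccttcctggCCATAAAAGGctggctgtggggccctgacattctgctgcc
The box began 47 bases before the start in Actc1, 73 in Acta1, 102 in Fhl1 and 99 in Myom1. In Ldb3 it began 35 or 109 bases before, depending on the start. In GENCODE M21 the Actc1, Fhl1 and Myom1 stretches lie within the span of their own gene, before an internal start. The Actc1 stretch includes 5 bases annotated as exonic. The Acta1 and Ldb3 stretches lie upstream of their gene, apart from 1 base of Ldb3. Of these 5 genes, Actc1 and Fhl1 fell, while the log2 fold changes of Acta1 (-0.44), Ldb3 (-0.51) and Myom1 (0.20) did not pass the test. A MEF2 site was present in 4 windows (9.09%) against 0.557% of all windows, and is in capitals here:
Ttn (chr2:76982674-76982743, minus strand): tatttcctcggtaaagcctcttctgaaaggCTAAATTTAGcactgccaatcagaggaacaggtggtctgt
Xirp2 (chr2:67445898-67445967, plus strand): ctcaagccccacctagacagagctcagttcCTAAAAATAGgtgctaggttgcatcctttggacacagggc
Klhl41 (chr2:69670027-69670096, plus strand): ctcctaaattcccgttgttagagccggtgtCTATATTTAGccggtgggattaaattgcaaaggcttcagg
Synpo2 (chr3:123236346-123236399, minus strand): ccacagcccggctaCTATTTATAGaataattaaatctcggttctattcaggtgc
None of these 4 genes passed the test in edgeR, with log2 fold changes of -0.05 in Ttn, -0.02 in Xirp2, -0.24 in Klhl41 and -0.61 in Synpo2. Of the shorter motifs, searched on both strands, the E-box CAGCTG was in 34.1% of the 44 windows and 16.3% of all, the MCAT motif CATTCC in 25% and 14.7%, and TATAAA, whose letters can fall within a MEF2 site, in 18.2% and 13.6%. The FoxO motif GTAAACA was in 0 of the 44 windows and 3.65% of all. A match is a run of letters and not a measured binding site.

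In the thin filament, 3 of 15 genes fell and 13 had a log2 fold change below 0, against 3.99% and 49.7% of all tested genes. Actc1 (ENSMUSG00000068614, chr2:114047282-114053548 on mm10) encodes cardiac alpha-actin, the actin of the heart and of developing skeletal muscle. It stood at 61.4, 67.4, 64.2 and 88.4 CPM in Control 1 to 4, and in LLC ran from 4.78 CPM in LLC 1 through a median of 16.9 to 28.2 CPM in LLC 3. The groups were well apart, and the log2 fold change was -2.04 ± 0.38 (SE), a 4.12-fold lower level (edgeR, adjusted p = 0.00755), lower in 6 of 6 LLC samples. Without LLC 1 it was -1.84 ± 0.24. Acta1, the skeletal alpha-actin and the most abundant of the 50 genes per length at 14009 RPKM in Control, ran from 20524 to 22398 CPM in Control and in LLC from 8729 CPM in LLC 1 through a median of 17294 to 18774 CPM. The groups did not overlap, but the difference of -0.44 ± 0.20 did not pass the test (edgeR, adjusted p = 0.176). Without LLC 1 its adjusted p in edgeR was 0.0489 at -0.31, which is below 1.5-fold.

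Lmod3 (ENSMUSG00000044086, chr6:97238534-97252759) encodes leiomodin 3, which nucleates actin filaments and holds thin filament length in skeletal muscle. It was at 147, 161, 142 and 163 CPM in Control, and in LLC at 44.5 CPM in LLC 1, a median of 83.3 and at most 102 CPM. It fell by 0.95 ± 0.20 on the log2 scale (edgeR, adjusted p = 0.0157), lower in 6 of 6 LLC samples. The call was lost without either of 2 Control samples, as the adjusted p in edgeR was 0.0512 without Control 2 and 0.0544 without Control 4. Lmod2, the leiomodin best known from the heart, was at 47.8 to 92.6 CPM in Control and 45.4 to 128 CPM in LLC 2 to 6, with 572 CPM in LLC 1. The difference of 1.14 ± 0.70 over all samples (edgeR, adjusted p = 0.296) was 0.04 without LLC 1.

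Gsn (ENSMUSG00000026879, chr2:35256380-35307892) encodes gelsolin, which severs and caps actin filaments and is made by many cell types. It was at 223, 217, 267 and 222 CPM in Control and at 59.0 to 100.2 CPM in LLC, with a median of 78.6. It fell by 1.52 ± 0.15 on the log2 scale (edgeR, adjusted p = 0.000184), had the smallest adjusted p of the 50 genes, and changed to -1.50 without LLC 1. Markers of fibroblasts and fibro-adipogenic cells moved in the same direction: of 8, 7 fell and 1 rose (Ly6a, 0.95), and their sum was 286 to 363 CPM in Control and 107 to 135 CPM in LLC. Among them Col1a1 was at 38.3 to 51.8 CPM in Control and 2.31 to 8.77 CPM in LLC, and Pdgfra at 5.61 to 6.68 and 1.73 to 2.71 CPM. Their part in the change of Gsn was not tested.

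Neither the fast troponins nor the tropomyosins passed the test. Tnnt3 and Tnni2, the fast troponins T and I, were at 16586 to 17485 and 6923 to 7548 CPM in Control and at 15288 to 18834 and 5758 to 8369.5 CPM in LLC. Their log2 fold changes were -0.03 ± 0.12 and -0.08 ± 0.12 (edgeR, adjusted p = 0.897 and 0.708). Tpm2, beta-tropomyosin, showed no overlap between the groups (6489.5 to 7031 CPM against 2683 to 5546 CPM) but did not pass the test at -0.54 ± 0.18 (edgeR, adjusted p = 0.0948). Without LLC 1 it was -0.42 ± 0.09 (adjusted p = 0.013), and with DESeq2 its adjusted p was 0.0402, both under 1.5-fold. Klhl41, a stabilizer of nebulin, also showed no overlap, at 482 to 544 against 382 to 460.3 CPM, with a difference of -0.24 ± 0.09 (edgeR, adjusted p = 0.113). Neb, the giant protein that runs along the thin filament, and Klhl40, which like Klhl41 stabilizes it, were at -0.02 and -0.01. Tpm1, Tnnc2 and the pointed-end cappers Tmod1 and Tmod4 were at -0.27, -0.26, -0.20 and 0.12, and none passed. Tnnc2, the fast troponin C, was listed at 3.29 to 6.26 CPM, and 74.0% of its exonic bases overlap exons of the antisense gene Ube2c, so its counts depend on how strand was treated.

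In the thick filament 0 of 6 genes passed the test in edgeR or DESeq2, 3 had an unadjusted p of 0.05 or less, and 5 had a log2 fold change below 0. Those 3 genes did not overlap between the groups. Over all tested genes, 27.4% had an unadjusted p of 0.05 or less in edgeR and 49.7% a log2 fold change below 0. In 9.57% every LLC sample lay below every Control sample. Myl1, the fast essential light chain, was at 10137, 9939.8, 9187 and 9357 CPM in Control, and in LLC ran from 2029.8 CPM in LLC 1 through a median of 6393 to 7915 CPM. All 6 LLC samples were lower, at -0.71 ± 0.29 (edgeR, adjusted p = 0.144), and without LLC 1 the difference was -0.53 ± 0.12 (adjusted p = 0.0134), under 1.5-fold. Mylpf, the fast regulatory light chain, was at 6826 to 7567 CPM in Control and 3081 to 6069 CPM in LLC, a difference of -0.47 ± 0.17 (edgeR, adjusted p = 0.116). Mybpc1, the slow-type myosin-binding protein C, was at 2316 to 2645 and 1583 to 2290.2 CPM, a difference of -0.40 ± 0.12 (edgeR, adjusted p = 0.0696). Without LLC 1 Mylpf was at -0.36 and Mybpc1 at -0.38 (adjusted p = 0.0244 and 0.0324), and with DESeq2 the adjusted p of Mybpc1 was 0.0117, each under 1.5-fold.

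Mybpc2, the fast-type myosin-binding protein C, went the other way in most mice. It was at 3413 to 3666 CPM in Control, at 2367 CPM in LLC 1 and at 3663 to 4390.4 CPM in LLC 2 to 6. Its log2 fold change was 0.11 ± 0.16 in all samples (edgeR, adjusted p = 0.66) and 0.23 ± 0.08 without LLC 1 (adjusted p = 0.0684). Mylk2, the kinase of the regulatory light chain, differed by -0.05. Mybph, a shorter relative of the myosin-binding proteins, was near the limit of these data at 0.791 to 4.52 CPM, and 49.9% of its exonic bases overlap the antisense gene Adora1.

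At the M-band, Myom3 fell and the other 4 genes, titin included, did not pass the test. Myom3 (ENSMUSG00000037139, chr4:135759715-135815564), the rarest of the 3 myomesins here at 3.02 RPKM in Control, was at 15.8, 15.3, 14.7 and 27.1 CPM in Control and at 4.41 to 12.8 CPM in LLC, with a median of 9.18. It fell by 1.04 ± 0.28 on the log2 scale (edgeR, adjusted p = 0.047), lower in 6 of 6 LLC samples. Control 4 was far above the other Control samples, and without it the change was -0.79 (adjusted p = 0.167). The call was also lost without Control 1, 2 or 3 (adjusted p = 0.0934, 0.0817 and 0.0815) and without LLC 4, 5 or 6 (adjusted p = 0.0589, 0.0702 and 0.0942), with the direction kept each time. Myom2, the myomesin of fast fibres, was at 1325 to 1649 CPM in Control and 665 to 1369 CPM in LLC, a difference of -0.48 ± 0.20 (edgeR, adjusted p = 0.151). Myom1, the myomesin of all striated muscle, was at 1453 to 1763 and 1634 to 2302 CPM, a difference of 0.20 ± 0.12 (edgeR, adjusted p = 0.278). Obsl1, which links titin to the myomesins, and Ttn itself differed by -0.07 and -0.05, with Ttn at 8446 to 9965 CPM in Control and 6664 to 10770.3 CPM in LLC.

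At the Z-disc 1 of 15 genes fell and 10 had a log2 fold change below 0, against 3.99% and 49.7% of all tested genes. Actn2 (ENSMUSG00000052374, chr13:12269426-12340760) encodes the alpha-actinin found in all striated fibres. It was at 917, 825, 928 and 1112 CPM in Control and at 555 to 686 CPM in LLC, with a median of 580.2. It fell by 0.63 ± 0.11 on the log2 scale (edgeR, adjusted p = 0.00546), and the 6 LLC samples lay close together and all below Control. LLC 1 was the highest of them, and without it the change was -0.66. Without Control 4 the change of -0.55 was under 1.5-fold (adjusted p = 0.0242). Actn3, the alpha-actinin of fast fibres and the more abundant per length (2033 RPKM against 249 RPKM in Control), was at 5509.7 to 6205 CPM in Control, 4933 CPM in LLC 1 and 5962 to 8592 CPM in LLC 2 to 6. Its difference of 0.25 ± 0.16 did not pass the test (edgeR, adjusted p = 0.316).

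**Figure D4:**
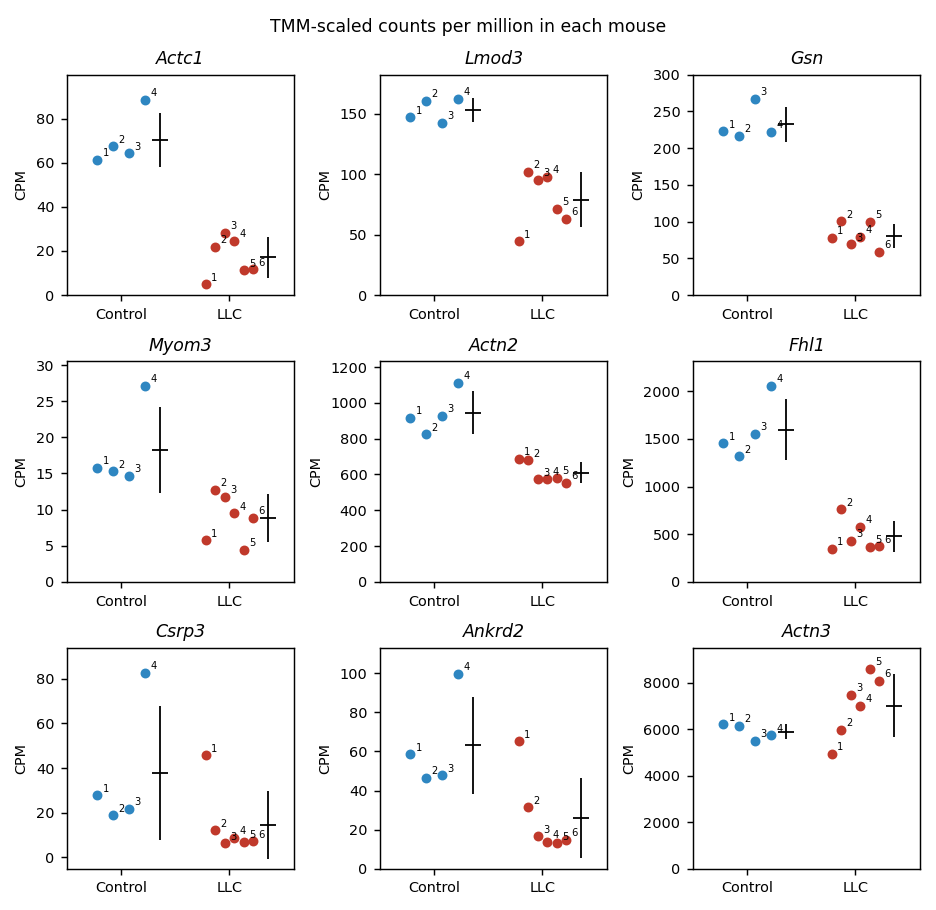
CPM (vertical axes, linear) in each Control (blue) and LLC (red) mouse for the 6 genes that fell and for Csrp3, Ankrd2 and Actn3, with the mean and SD as a bar to the right and replicate numbers beside the points. The groups do not overlap in the first 6 panels, LLC 1 lies within the Control range of Csrp3 and Ankrd2, and Actn3 is highest in LLC 5.

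The other Z-disc genes showed 3 patterns. The anchoring proteins Synpo2 and Ldb3 did not overlap between the groups, Synpo2 at 588 to 670.1 against 108 to 572 CPM and Ldb3 at 1604 to 1790.3 against 555 to 1458 CPM. Neither passed the test, at -0.61 ± 0.33 (edgeR, adjusted p = 0.244) and -0.51 ± 0.21 (adjusted p = 0.152), and in both LLC 1 was the lowest sample by far. Without LLC 1 they were -0.40 and -0.36 (adjusted p = 0.0255 and 0.0169), under 1.5-fold. Tcap, the titin cap, and Myoz1, the calcineurin-binding calsarcin of fast fibres, were abundant and close to Control, at -0.02 ± 0.17 and -0.23 ± 0.22 (edgeR, adjusted p = 0.937 and 0.509). Des, which encodes the intermediate filament desmin around the Z-disc, and the PDZ-LIM gene Pdlim3 had the largest log2 fold changes above 0 in this class, at 0.39 ± 0.16 and 0.59 ± 0.29 (edgeR, adjusted p = 0.152 and 0.211). Pdlim3 was at 246 to 274 CPM in Control, at 608 and 615 CPM in LLC 5 and LLC 1, and at 235 to 359 CPM in the other 4 LLC samples. The capping subunits Capza2 and Capzb differed by -0.08 and -0.13. Myoz3, Pdlim7, Myot, Flnc and Pdlim5 ran from -0.47 to 0.21, and none passed.

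Among the stretch response genes, Fhl1 fell in all LLC mice, and Csrp3 and Ankrd2 were low in 5 of 6. Fhl1 (ENSMUSG00000023092, chrX:56731787-56793346) encodes a LIM protein that binds titin and is the 15th most abundant of the 50 genes per length at 429.8 RPKM in Control. It was at 1454, 1318, 1557 and 2056 CPM in Control, and in LLC ran from 345 CPM through a median of 403 to 762 CPM. It fell by 1.74 ± 0.23 on the log2 scale, 3.34-fold lower (edgeR, adjusted p = 0.00102), and no alternative removed the call.

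Csrp3, the muscle LIM protein of the Z-disc, was at 27.9, 18.8, 21.7 and 82.6 CPM in Control, 45.7 CPM in LLC 1 and 6.20 to 12.1 CPM in LLC 2 to 6. Ankrd2, a titin-binding ankyrin repeat protein induced by stretch, was at 58.5, 46.5, 47.9 and 99.6 CPM in Control, 65.2 CPM in LLC 1 and 12.9 to 31.5 CPM in LLC 2 to 6. LLC 1 thus lay among the Control samples for both genes, and Control 4 was the highest of all 10 samples. With all samples neither passed the test in edgeR, at -1.38 ± 0.61 (adjusted p = 0.172) and -1.29 ± 0.45 (adjusted p = 0.102). Without LLC 1 both did, at -2.19 ± 0.40 (adjusted p = 0.00483) and -1.81 ± 0.28 (adjusted p = 0.00166). Without Control 4, with LLC 1 kept, they were -0.65 (adjusted p = 0.52) and -0.98 (adjusted p = 0.27). Leaving out LLC 1 was a choice tied to its distance from the other samples over all genes, to which these genes also contribute.

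Ankrd1, the cardiac relative of Ankrd2, was rare at 5.33 to 7.47 CPM in Control, and was at 24.1 CPM in LLC 1, 15.5 CPM in LLC 2 and 5.31 to 7.36 CPM in the other 4. Its log2 fold change was 0.84 ± 0.41 (edgeR, adjusted p = 0.202). Nrap and Xirp1, which take part in assembly and repair of myofibrils, were highest in LLC 1 (3034 and 276 CPM) and otherwise at 1163 to 1652 and 67.4 to 120.4 CPM in LLC, against 1320.3 to 1648 and 93.7 to 176 CPM in Control. Without LLC 1 their values of 0.17 and 0.05 became -0.09 and -0.29. Cryab, a small heat shock protein that guards desmin and titin, Smpx, a small Z-disc-associated protein, and Xirp2 differed by -0.11, -0.30 and -0.02, and none passed.

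Relations between paralogs and partner genes were examined within each mouse, as the log2 ratio of their counts, which does not depend on library scaling. Of 14 pairs, 7 differed between the groups at an adjusted p of 0.05 or less (exact permutation test over all 210 arrangements, two-sided, Benjamini-Hochberg over the 14 pairs), and in 6 of these the groups did not overlap. The smallest p this design allows is 0.00952. As the ratios are not corrected for gene length, only their difference between groups is read.

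The ratio of Actn3 to Actn2 counts was 5.16 to 7.45 in Control, 7.19 in LLC 1 and 8.77 to 14.7 in LLC 2 to 6. It was 0.86 higher in LLC on the log2 scale (exact permutation test, p = 0.019, adjusted p = 0.0381), and the adjusted p was above 0.05 without any one of Control 1, 3 and 4 or LLC 2 to 6, from 0.0556 to 0.0952. The ratio of Actc1 to Acta1 was 0.00278 to 0.00395 in Control and 0.000551 to 0.0015 in LLC, a log2 difference of -1.77. So the cardiac actin was lower relative to the skeletal actin in each LLC mouse. Relative to Myom1, Myom2 was at 0.888 to 0.94 in Control and 0.289 to 0.781 in LLC, and Myom3 at 0.00921 to 0.0154 and 0.00249 to 0.0073, with log2 differences of -0.73 and -1.28. The ratio of Ankrd1 to Ankrd2 showed the largest difference of the 14, from 0.0547 to 0.134 in Control to 0.36 to 0.53 in LLC, 2.12 on the log2 scale or 4.34-fold. In contrast to either gene alone, this ratio placed LLC 1 (0.369) among the other LLC samples. Tmod4 to Tmod1 and Mylpf to Myl1 moved less, by 0.33 and 0.33, and without LLC 1 by 0.33 and 0.18. These 6 pairs each had p = 0.00952 and an adjusted p of 0.0222 (exact permutation test). Of the exonic bases of Tmod1, 32.6% overlap the antisense gene Tstd2, so its ratio depends on how strand was treated.

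The other 7 pairs did not pass. Mybpc2 to Mybpc1 (0.49), Klhl40 to Klhl41 (0.22) and Lmod2 to Lmod3 (1.50) had p = 0.0381, 0.0381 and 0.0476, with adjusted p = 0.0593, 0.0593 and 0.0667 (exact permutation test). Without LLC 1 the difference in Mybpc2 to Mybpc1 was 0.61 (adjusted p = 0.0247), and that in Lmod2 to Lmod3 was 0.84 (adjusted p = 0.101). Tpm1 to Tpm2 (0.24), Myoz1 to Myoz3 (0.45), Capza2 to Capzb (0.05) and Xirp1 to Xirp2 (-0.01) had p from 0.105 to 0.924 (exact permutation test). Tpm1 to Tpm2 passed without LLC 1 (0.32, adjusted p = 0.0247) and Klhl40 to Klhl41 without LLC 3 (0.26, adjusted p = 0.0317).

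**Figure D5:**
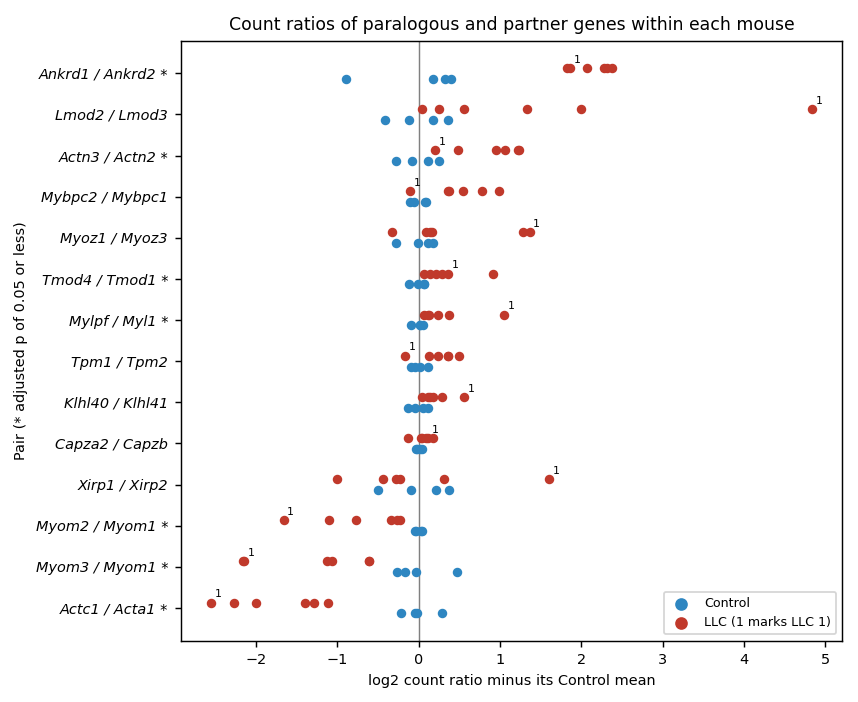
Log2 count ratio of 14 gene pairs minus the Control mean of that ratio (horizontal axis) in 4 Control (blue) and 6 LLC (red) mice, with LLC 1 marked and asterisks at the 7 pairs with an adjusted p of 0.05 or less. Ankrd1 to Ankrd2 lies furthest to the right as a group and Actc1 to Acta1 furthest to the left.

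Other genes of the sarcomere, from lists apart from the 50, give the setting. For the counts here and in the next paragraph, the shares over all tested genes in edgeR were 3.99% that fell and 1.65% that rose. An unadjusted p of 0.05 or less was found for 27.4%. With DESeq2 5.23% fell, and without LLC 1 5.37% fell in edgeR. Of 6 myosin heavy chains 0 passed the test in edgeR, 3 reached an unadjusted p of 0.05 or less, and 1 passed with DESeq2. Myh2, the heavy chain of type IIa fibres, had the largest value at -1.32 ± 0.51 (edgeR, adjusted p = 0.127). Without LLC 1, 2 of the 6 fell, Myh2 (-1.09, adjusted p = 0.0417) and Myh1, the heavy chain of type IIx fibres (-0.81, adjusted p = 0.0448). Of 10 slow and cardiac paralogs tested, Myl2 and Myoz2 fell (-1.66 and -0.97, edgeR, adjusted p = 0.0221 and 0.0284), and Myl3, with the largest value at -1.66 ± 0.46, was just outside (adjusted p = 0.0531) and fell without LLC 1 (-1.43, adjusted p = 0.00446). Of 28 other Z-disc and M-band genes tested 0 fell and 1 rose in edgeR, the non-muscle alpha-actinin Actn1, at 4.69 to 6.46 CPM in Control and 9.38 to 13.5 CPM in LLC (0.99 ± 0.15, adjusted p = 0.00216). Of these 28, 10 had an unadjusted p of 0.05 or less and 2 passed with DESeq2. Without LLC 1, 2 of them fell, Itgb1bp2 (-0.65, edgeR, adjusted p = 0.0224) and Fbxl22 (-0.81, adjusted p = 0.0186). Actn1 is also made by cells outside the fibre. Of 10 assembly chaperones 1 fell, Hspb6, from 664 to 891 CPM in Control to 396 to 529 CPM in LLC (-0.81 ± 0.12, edgeR, adjusted p = 0.00164).

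Of 9 ubiquitin ligases and proteases of the sarcomere 1 rose. Fbxo32, the ligase atrogin-1, was at 269 to 385 CPM in Control and 517 to 3629.97 CPM in LLC (2.03 ± 0.49, edgeR, adjusted p = 0.0307), highest in LLC 1. Trim63, the M-band ligase MuRF1, had the largest value at 2.19 ± 0.66 but did not pass (adjusted p = 0.0718), at 157 to 195 CPM in Control and 211 to 2529 CPM in LLC, again highest in LLC 1. Without LLC 1 both rose, Fbxo32 at 1.51 (edgeR, adjusted p = 0.00545) and Trim63 at 1.46 (adjusted p = 0.0338).

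Markers of fibre type and of other cells were read beside these values. For their counts, the shares over all tested genes in edgeR were 3.99% that fell, 1.65% that rose and 27.4% with an unadjusted p of 0.05 or less. The 7 fast-fibre markers summed to 90085 to 96751 CPM in Control, 90045 to 107312 CPM in LLC 2 to 6 and 59424 CPM in LLC 1, and 0 of them passed in edgeR or DESeq2, with 1 at an unadjusted p of 0.05 or less. Without LLC 1, 1 of the 7 fell in edgeR, the glycolytic enzyme gene Eno3 (-0.69, adjusted p = 0.0156). The 6 slow-fibre markers, of which 1 fell (Myl2), summed to 30.3 to 38.9 CPM in Control and 25.3 to 45.8 CPM in LLC. Neutrophil markers rose, 6 of 6 tested, from a sum of 0.689 to 1.93 CPM in Control to 31.2 to 68.5 CPM in LLC. Of 8 smooth muscle and pericyte markers 3 fell, with a sum of 508 to 561 CPM in Control and 298 to 397 CPM in LLC. Tendon markers fell in 3 of 4 tested (62.1 to 69.1 against 8.999 to 28.9 CPM), as did 2 of 4 satellite cell (23.8 to 29.6 against 21.5 to 34.5 CPM), 2 of 5 Schwann cell (29.1 to 34.0 against 14.3 to 22.7 CPM), 1 of 6 endothelial (259 to 328 against 239 to 279.6 CPM) and 1 of 6 macrophage markers (13.6 to 20.1 against 9.09 to 15.0 CPM). Of 3 adipocyte markers tested 0 passed in edgeR or DESeq2, with 0 at an unadjusted p of 0.05 or less (1.21 to 8.38 against 1.86 to 4.11 CPM). Their part in the values of the sarcomere genes was not tested.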

How the data were processed

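Counts per Ensembl gene identifier were deposited by the authors for 10 tibialis anterior samples, 1 file each. Per the study's methods, total RNA (TRIzol, stranded total RNA libraries, paired ends, all in 1 lane) was mapped to mm10 with TopHat2 and counted with HTSeq at default settings. The methods name RefSeq genes while the rows are Ensembl identifiers, so the annotation release and strand setting are uncertain. That matters for 13 of the 50 genes, whose exons overlap an antisense gene, and for none of the 6 called.

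Of 39179 identifiers 37607 received a symbol, coordinates and exonic length from GENCODE M21. edgeR 4.0.16 (R 4.3.3) was used with filterByExpr (count minimum 10), TMM scaling and the quasi-likelihood test with group alone in the model. Calls required an adjusted p (Benjamini-Hochberg over all 12690 tested genes) of at most 0.05 and at least 1.5-fold. SE came from the F statistic, CPM is TMM-scaled, and log2 ratios of counts had 0.5 added. The scripts were tested on simulated data. Depth intervals and floors cover counting error only, as PCR reads without molecular identifiers are not independent molecules. All 10 libraries shared a lane, so there were no sequencing batches to compare within. Each sample is 1 mouse, and p-values measure the spread between these mice.

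Genes described in full were those called, the 3 with the highest Control RPKM and the 2 with the largest absolute log2 fold change in each class, and both genes of a passing pair. For the other lists they were called genes and the gene with the largest value. Other genes named were chosen after their values were seen. The members, lists and pairs were chosen with earlier results of these data known. Alternatives covered scaling (RLE, upper quartile, no mitochondrial genes), filters, DESeq2 1.42.0, limma 3.58.1 voom with sample quality weights, thresholds, a replicate block and each sample left out. Small RNA libraries were not analysed here.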

Additional observations from a re-analysis of the deposited data

Results flagged for a closer look

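In each gene and group the highest and lowest CPM were compared with Dixon's 95% critical value for the gap to the nearest sample. Of 100 groups 18 had a sample beyond it, where chance at 1 in 20 gives about 5.

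LLC 1 made up 12 of the 18. It was the lowest LLC sample by this measure for 4 genes: Tpm1 (5197 CPM), Mybpc2 (2367 CPM), Myoz1 (718 CPM) and Ldb3 (555 CPM). It was the highest for 8: Lmod2 (572 CPM), Myom1 (2302 CPM), Flnc (1520.02 CPM), Myot (1515 CPM), Csrp3 (45.7 CPM), Ankrd2 (65.2 CPM), Xirp1 (276 CPM) and Nrap (3034 CPM). Those 8 are 1 thin filament, 1 M-band, 2 Z-disc and 4 stretch response genes, so both sets hold filament and Z-disc genes.

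Control 4 was the highest Control sample by this measure for Myom3 (27.1 CPM) and Csrp3 (82.6 CPM). The other 4 were Gsn in Control 3 (267 CPM), Mylpf in Control 2 (7567 CPM), Tcap in Control 2 (2469.6 CPM) and Obsl1 in LLC 4 (57.9 CPM).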

How the results depend on the processing

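Of the 50 genes, 6 were called with RLE or upper-quartile scaling, without mitochondrial genes, without a filter and with no fold minimum, 5 with at least 10 counts in every sample, 7 with DESeq2, 8 with voom and 9 with an unadjusted p, and none was called higher in any of these. With each sample left out the count ran from 3 (without Control 4) to 8 (without LLC 1). The replicate block gave 2 genes (Gsn and Fhl1). Replicate numbers of the 2 groups belong to different mice, and the correlations of their deviations were -0.03, 0.01, -0.08 and 0.13, with 1 of 4 samples closest to its own number, so the block was not used. The thick filament median ran from -0.47 (without LLC 3) to -0.21 with each sample left out, and the stretch response median from -0.22 (without LLC 1) to 0.01 (without Control 4). The count of paralog ratios past the threshold ran from 0 (without Control 1, 3 or 4) to 9 (without LLC 1). With 3 Control samples the smallest exact p is 0.0238.

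Over 26 genes and 19 alternatives each, 459 of 494 values kept their direction and side of the threshold, 15 lost the call, 8 gained it and 12 turned, all of the last in genes without a call. With the block Mybpc2 was -0.011, Ttn 0.015 and Tmod4 -0.039, and with voom Ttn was 0.027 and Nrap -0.15. With each sample left out Tnnt3 ran from -0.064 to 0.0048, Ttn from -0.12 to 0.018, Tcap from -0.14 to 0.068, Nrap from -0.088 to 0.25 and Cryab from -0.18 to 0.011. The cause was not tested. Counts were low for Mybph, Tnnc2, Ankrd1 and Myom3, which were under 30 CPM in every sample but above the floor of 3 counts. The Tnnc2, Mybph and Tmod1 counts depend on how strand was treated, as 74.0%, 49.9% and 32.6% of their exonic bases overlap antisense genes.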
